A study of Arabidopsis thaliana with 3 samples.

Results

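The genes described here encode the enzymes that place, copy and remove cytosine methylation on DNA in Arabidopsis thaliana, and the RNA silencing proteins that direct it. They are 42 loci chosen by name, with earlier results of these data known, and all 42 were among the 27374 loci listed. They comprise 5 DNA methyltransferases, 4 partners of CG methylation, 4 DNA demethylases, 10 genes of RNA polymerase IV and siRNA production, 3 Argonautes, 8 genes of RNA polymerase V and its targeting, 3 histone H3K9 methyltransferases, 2 MORC ATPases and 3 histone demethylases. Their RNA was measured in 3 libraries of wild-type Col-0, the reference accession, which form 1 group with no mutant or treatment to set against it. The series is on adenine methylation of DNA, another base mark. Whole seedlings were 9 days old and had been kept at 23 °C under long days (16 h light, 8 h dark), and total RNA was freed of ribosomal RNA before strand-specific sequencing. The comparisons are therefore between genes within the same seedlings, and between the libraries. Separate cultures are not stated in the labels, so every SD measures the spread between these libraries, which may be technical. Each p-value rests on such spread, pooled in part over all loci tested, and takes no account of gene models or shared reads.

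In plants, cytosines are methylated in the contexts CG, CHG and CHH, where H stands for any base but G. MET1 copies CG methylation after replication, the chromomethylases CMT3 and CMT2 follow methylated histone H3K9, and DRM2 is guided to its targets by small RNAs. In this RNA-directed pathway, polymerase IV and RDR2 make double-stranded RNA, DCL3 cuts it into siRNAs, and AGO4 carries these to transcripts of polymerase V. Glycosylases of the ROS1 and DME family take 5-methylcytosine out again.

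Values are FPKM, fragments per kilobase of transcript scaled to the number of fragments sequenced, summed over the transcripts of a locus. The summed FPKM of all transcripts lay between 1957870 and 2064646 per library, and nuclear loci held 29.4% to 30.8% of it. The read depth is unknown. Markers of green tissue (CAB1, 14284 ± 737 FPKM), root (PYK10, 1009 ± 52.9), epidermis (FDH, 132 ± 5.28) and phloem (SUC2, 68.2 ± 2.77; SD, n = 3 libraries each) were all present. Markers of dividing cells were lower than these, and each was highest in library 3: CYCB1;1 had 3.12 ± 0.603 FPKM, CDKB2;2 had 4.71 ± 0.845 and PCNA1 had 7.82 ± 0.883. DMC1, which acts in meiosis, had 5.20 ± 0.372 FPKM, and the stem cell gene WUS was listed at 0. In whole seedlings, few cells with much RNA of a gene and many cells with little cannot be told apart.

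At 1 FPKM or more in every library were 34 of the 42 genes, where 63.5% of all listed loci did. Their median was 3.98 FPKM, against 3.92 FPKM over 26681 nuclear protein-coding loci. Of them, 18 of 42 (42.9%) lay from 1 to below 5 FPKM, against 20.4% of the nuclear protein-coding loci, and 7 of 42 (16.7%) reached 10 FPKM, against 8267 of the 26681 loci. Those 7 were AGO4, SUVH9, RDM1, NRPD2, JMJ14, ROS1 and DME, in falling order. Below a mean of 1 FPKM were 8 of 42 genes (19.0%), against 34.0% of the nuclear protein-coding loci. These 8 were CLSY2, VIM2, DML3, CLSY4, AGO6, CLSY3, AGO9 and DRM1. Of the 41 pairs of neighbours in the order of levels, 31 had library values that overlapped. The order was clear of overlap at 10 steps, among them from AGO4 to SUVH9, from JMJ14 to ROS1, from ROS1 to DME, from VIM1 to CMT3 and from AGO9 to DRM1. Between the steps, the median level was 6.97 FPKM for the histone demethylases, 6.85 for the DNA demethylases, 5.15 for the H3K9 methyltransferases, 4.90 for the DNA methyltransferases and 4.78 for the MORC ATPases. It was 3.42 FPKM for the genes of polymerase V, 3.32 for the partners of CG methylation, 2.88 for polymerase IV and siRNA production and 0.301 for the Argonautes. These medians hide a wide range within each step, since DNA methyltransferases reached from 0.0102 to 7.31 FPKM and Argonautes from 0.187 to 17.9. Pairs of genes were therefore compared directly, 26 in all, each against 1 of 13 genes.

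**Figure D1:**
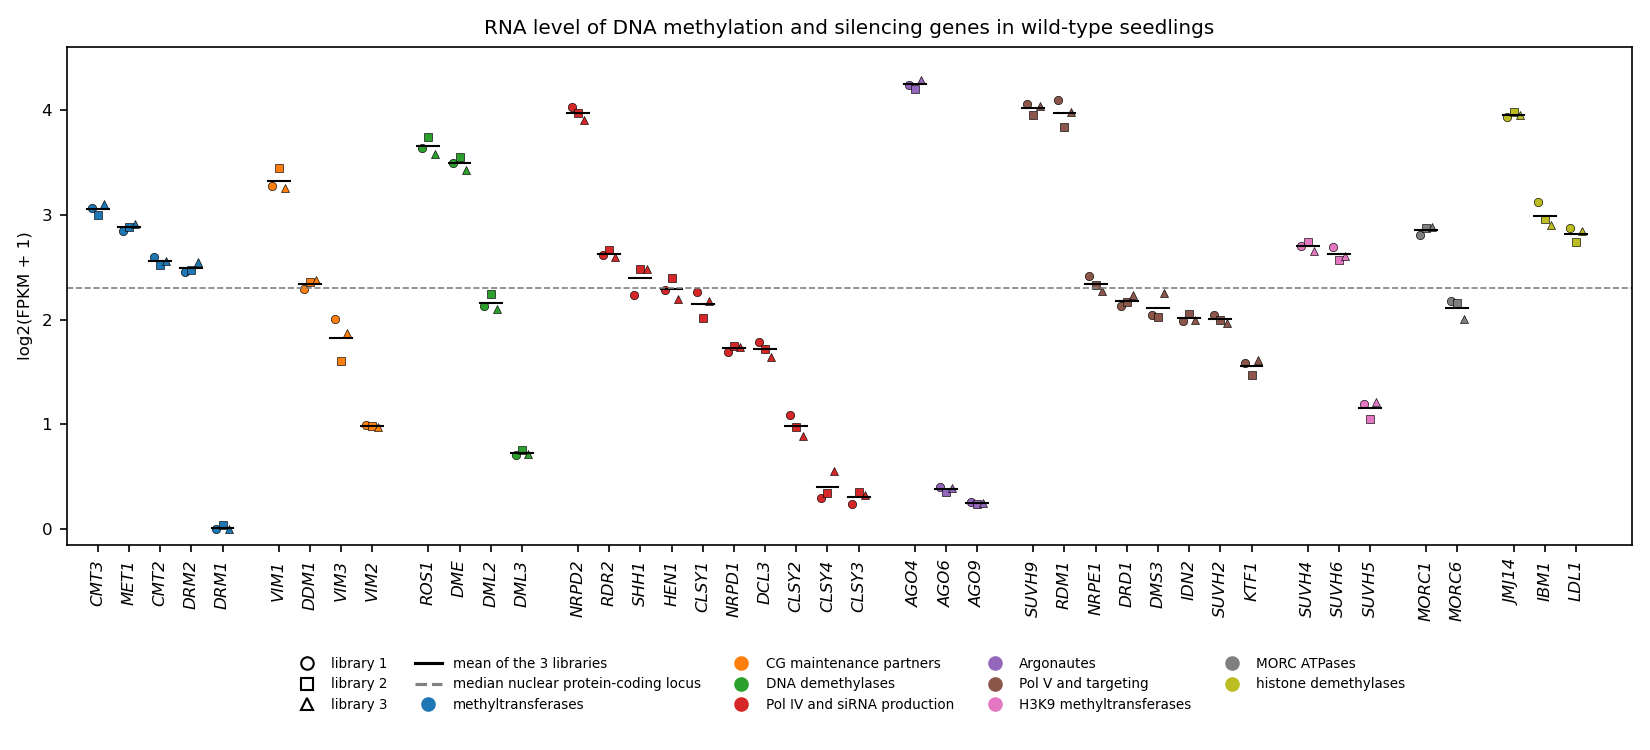
Level of each of the 42 genes on the log2(FPKM + 1) scale, grouped by role. Symbols stand for libraries 1 to 3, short bars for their mean, and the dashed line for the median of nuclear protein-coding loci (3.92 FPKM); the spread within a gene is small beside the distance between paralogs such as AGO4, AGO6 and AGO9.

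Among the DNA methyltransferases, CMT3 had 7.36, 6.97 and 7.61 FPKM in libraries 1, 2 and 3, and MET1 had 6.18, 6.39 and 6.51 FPKM. CMT2, which methylates CHH and CHG sites in heterochromatin, had 5.06, 4.75 and 4.90 FPKM, below CMT3 in every library. The difference of CMT2 from CMT3 was -0.49 in log2(FPKM + 1) (SE 0.074, limma adjusted p = 1.56e-05). In the same test, 90.6% of the 17867 loci that averaged 1 FPKM or more differed from CMT3, so a difference by itself says little about this pair. DRM2, the de novo enzyme of the RNA-directed pathway, had 4.46, 4.56 and 4.84 FPKM. Its paralog DRM1 was listed at 0 in libraries 1 and 3 and at 0.0307 FPKM in library 2. The coding sequences of DRM1 and DRM2 were 69.4% identical over 1828 aligned bases, and no 31-base word of the exons of DRM1 occurred elsewhere in the TAIR10.1 genome. Both lie on chromosome 5, DRM1 at 4991347 to 4994924 on the plus strand and DRM2 at 4715105 to 4718704 on the minus strand. DRM1 was below the filter of 1 FPKM and was not tested against DRM2, from which 91% of loci tested differed.

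MET1 works with DDM1, a chromatin remodeler that opens heterochromatin to methyltransferases, and with VIM proteins, which bind hemimethylated CG sites. DDM1 (AT5G66750, CHR1 in the gene table) had 3.89, 4.11 and 4.18 FPKM, lower than MET1 in each library. The ratio of DDM1 to MET1 was 0.638 ± 0.00760 (SD, n = 3), with little spread between libraries. On the log2 scale DDM1 differed from MET1 by -0.54 (SE 0.076, limma adjusted p = 9.17e-06), where 91.4% of all loci tested differed from MET1.

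The 3 VIM genes differed widely in level. VIM1 had 8.65, 9.87 and 8.57 FPKM, VIM3 had 3.01, 2.04 and 2.65, and VIM2 had 0.988, 0.972 and 0.959. The groups of values did not overlap between the 3 genes, and VIM3 had the largest log2 SD of the 34 genes at 1 FPKM or more (0.20). VIM3 differed from VIM1 by -1.50 (SE 0.106, limma adjusted p = 3.04e-08), where 90.9% of loci tested differed from VIM1, and VIM2 was just below the filter. VIM2 cannot be separated cleanly from a copy that is not among the 42 genes, VIM4 (AT1G66040), which had 0.595 ± 0.0503 FPKM. The coding sequences of VIM4 and VIM2 were 99.5% identical, those of VIM3 and VIM2 95.9%, and those of VIM2 and VIM1 77.0%. Of the 31-base words in the exons of VIM2, 76.9% occurred elsewhere in the genome, and 73.4% of all its words were in VIM4 and 25.4% in VIM3. For VIM3 the share found elsewhere was 30.4%, and for VIM1 it was 0.891%. The split of reads between VIM2, VIM3 and VIM4 is therefore uncertain, and VIM1 is little touched by it. A coding stretch of 90 bases in the RefSeq annotation of TAIR10.1 shows the relation. It was chosen by script as the stretch with the fewest differences, capitals mark the 11 positions at which the 4 genes are not all alike, and all are written 5′ to 3′ on the coding strand.
VIM1: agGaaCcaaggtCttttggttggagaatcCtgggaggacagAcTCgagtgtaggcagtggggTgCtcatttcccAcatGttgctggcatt
VIM2: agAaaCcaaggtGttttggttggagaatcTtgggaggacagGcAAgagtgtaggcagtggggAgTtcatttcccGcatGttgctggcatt
VIM3: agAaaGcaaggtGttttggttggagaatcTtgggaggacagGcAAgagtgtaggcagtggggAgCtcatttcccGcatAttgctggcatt
VIM4: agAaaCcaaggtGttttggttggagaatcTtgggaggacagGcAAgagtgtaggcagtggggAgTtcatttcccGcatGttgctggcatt
The stretch lies at chr1:21416469-21416558 on the minus strand in VIM1, chr1:24590847-24590936 on the plus strand in VIM2, chr5:15839062-15839151 on the minus strand in VIM3 and chr1:24585497-24585586 on the minus strand in VIM4. Within it VIM2 and VIM4 differed at 0 positions, VIM2 and VIM3 at 3, and VIM1 and VIM2 at 9.

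The 4 DNA demethylases stood in the order ROS1, DME, DML2 and DML3 in every library. ROS1 (AT2G36490, DML1 in the gene table), the main demethylase of vegetative tissue, had 11.4, 12.4 and 10.9 FPKM. DME, known for demethylation in the central cell of the female gametophyte, had 10.2, 10.7 and 9.77 FPKM in these seedlings, below ROS1 in each library. DML2 had 3.37, 3.73 and 3.29 FPKM and DML3 had 0.629, 0.688 and 0.648. The ratio of DML2 to ROS1 was 0.299 ± 0.00378 and that of DML3 to ROS1 was 0.0566 ± 0.00237 (SD, n = 3). DML2 differed from ROS1 by -1.50 (SE 0.081, limma adjusted p = 3.2e-10), and DML3 was below the filter. DME differed from ROS1 by -0.16 (SE 0.069, limma adjusted p = 0.0380), where 91.7% of loci tested differed from ROS1. This call did not hold with the ratio to ROS1 as the moderated quantity (limma adjusted p = 0.0758), nor without any of the 3 libraries (0.0859 to 0.111), although DME was lower in 3 of 3 libraries. For its leading transcript alone the difference was -0.35. All 4 demethylases were highest in library 2. Over all nuclear loci with a value, 34.2% were highest in library 1, 27.4% in library 2 and 38.4% in library 3. Set against the maintenance enzyme MET1, ROS1 was higher by 0.77 (SE 0.071, limma adjusted p = 6.88e-08) in 3 of 3 libraries, a ratio of 1.82 ± 0.133.

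Of the 10 genes of polymerase IV and siRNA production, 7 reached 1 FPKM in every library. NRPD1, the largest subunit of polymerase IV, had 2.23, 2.35 and 2.33 FPKM. NRPE1, the largest subunit of polymerase V, had 4.32, 4.02 and 3.82 FPKM, above NRPD1 in every library. NRPD1 differed from NRPE1 by -0.61 (SE 0.091, limma adjusted p = 1.66e-05), where 90.8% of loci tested differed from NRPE1. NRPD2 (AT3G23780, NRPD2A in the gene table), the second subunit that both polymerases share, had 15.4, 14.7 and 14.0 FPKM. The ratio of NRPD2 to NRPE1 was 3.62 ± 0.0570, a log2 difference of 1.63 (SE 0.076, limma adjusted p = 4.94e-11), and 0.97 with the leading transcript only. Of the 31-base words of NRPD2, 20.5% also occurred in NRPD2B (AT3G18090), which had 2.85 ± 0.137 FPKM, so some of its reads cannot be assigned with certainty.

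RDR2, which turns polymerase IV transcripts into double strands, had 5.13, 5.34 and 5.06 FPKM. DCL3, the Dicer that follows it, had 2.46, 2.30 and 2.11 FPKM, and its values overlapped those of NRPD1. NRPD1 differed from RDR2 by -0.90 (SE 0.087, limma adjusted p = 2.05e-07) and DCL3 from RDR2 by -0.91 (SE 0.090, limma adjusted p = 3.22e-07), where 91.2% of loci tested differed from RDR2. HEN1, which methylates the 3′ ends of small RNAs, had 3.87, 4.25 and 3.59 FPKM. SHH1, a reader of histone H3K9 methylation that recruits polymerase IV, had 3.70, 4.57 and 4.58 FPKM. Its leading transcript varied less (3.70, 3.80 and 3.88 FPKM), and transcript AT1G15215.3 was listed at 0 in library 1 and at 0.768 and 0.708 FPKM in libraries 2 and 3.

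CLSY proteins are remodelers that bring polymerase IV to different sets of loci, and 1 of the 4 genes held most of their RNA. CLSY1 had 3.78, 3.04 and 3.52 FPKM, and CLSY2 (AT5G20420, CHR42 in the gene table) had 1.13, 0.968 and 0.852. CLSY3 (AT1G05490) had 0.179, 0.280 and 0.251 FPKM, and CLSY4 (AT3G24340) had 0.231, 0.273 and 0.465. The values of CLSY1 lay above all those of CLSY2, and those of CLSY2 above all those of CLSY3 and CLSY4, which overlapped each other. The ratio to CLSY1 was 0.286 ± 0.0394 for CLSY2, 0.0702 ± 0.0223 for CLSY3 and 0.0943 ± 0.0357 for CLSY4 (SD, n = 3). All 3 were below the filter and were not tested against CLSY1, from which 90.1% of loci tested differed. The coding sequences of CLSY2 and CLSY1 were 79.5% identical, but at most 0.134% of the 31-base words in their exons occurred elsewhere.

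Among the Argonautes, AGO4 held nearly all of the FPKM. AGO4 (chromosome 2, 11536502 to 11542391, minus strand, 23 exons) had 17.9, 17.4 and 18.5 FPKM and was the highest of the 42 genes. AGO6, which can act beside AGO4 and is known from meristems, had 0.318, 0.275 and 0.309 FPKM. AGO9, known for its role in ovules, had 0.193, 0.182 and 0.187 FPKM. The ratio to AGO4 was 0.0167 ± 0.000944 for AGO6 and 0.0105 ± 0.000326 for AGO9, so that neither reached 2% of the level of AGO4 in any library. Neither was tested, being under 1 FPKM, and 94.6% of loci tested differed from AGO4. Reads could be assigned well here, since at most 0.461% of the 31-base words of these 3 genes occurred elsewhere in the genome.

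Polymerase V is helped onto chromatin by the DDR complex of DRD1, DMS3 and RDM1, and by SUVH2 and SUVH9, which bind methylated DNA but lack methyltransferase activity. DRD1, a remodeler, had 3.37, 3.50 and 3.72 FPKM, and DMS3, a structural-maintenance-like protein, had 3.13, 3.06 and 3.75. Their values overlapped, and the difference of DMS3 from DRD1 was -0.07 (95% interval -0.27 to 0.13, limma adjusted p = 0.472). RDM1, a small protein that binds methylated DNA, stood at 16.1, 13.3 and 14.8 FPKM, and differed from DRD1 by 1.79 (SE 0.084, limma adjusted p = 1.78e-11), where 90.5% of loci tested differed from DRD1. The levels of DMS3 and RDM1 depend on the gene models, because in TAIR10.1 most bases of their transcripts are noncoding: 1263 of 4111 bases are coding in DMS3 and 492 of 2778 in RDM1. Genes on the opposite strand overlapped 54.6% of the exon bases of DMS3 (AT3G49240, 4.42 FPKM) and 68.4% of those of RDM1 (AT3G22670, 0.964 FPKM). The libraries keep the strand, but whether the authors' quantification used it is not given in the sources used here.

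SUVH9 had 15.7, 14.4 and 15.4 FPKM, while its paralog SUVH2 had 3.12, 2.98 and 2.91. The ratio of SUVH2 to SUVH9 was 0.198 ± 0.00860, a log2 difference of -2.01 (SE 0.077, limma adjusted p = 2.54e-11), where 93.4% of loci tested differed from SUVH9. The remaining genes of this step, IDN2 and KTF1, averaged below the median of nuclear protein-coding loci. IDN2, which binds double-stranded RNA, had 2.97, 3.15 and 2.99 FPKM, and KTF1, a relative of the elongation factor SPT5 that binds AGO4, had 2.01, 1.76 and 2.06. Of the 31-base words of IDN2, 12.2% occurred elsewhere, most of them in AT4G01780, which had 0.0281 FPKM.

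**Figure D2:**
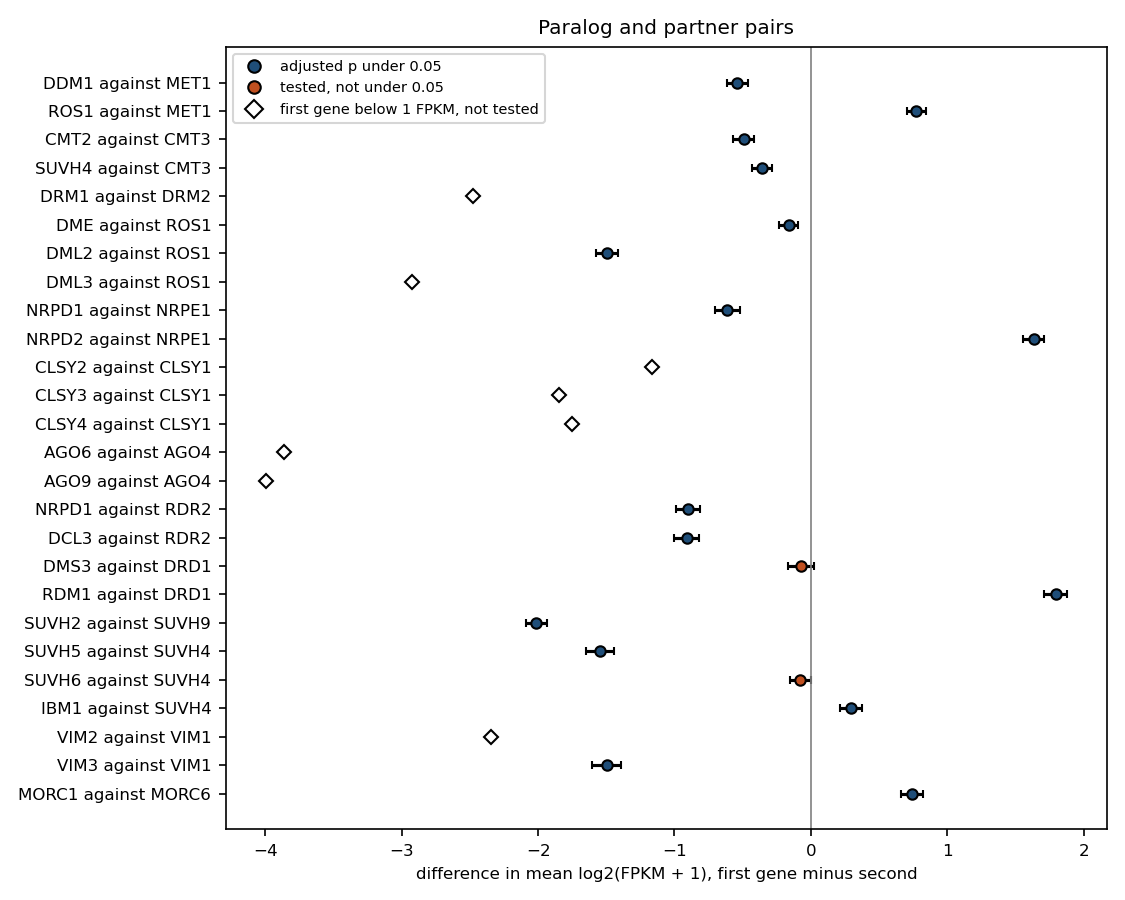
Difference in mean log2(FPKM + 1) between the genes of each of the 26 pairs compared, first gene minus second. Error bars are standard errors from limma; of 18 pairs tested, 16 had an adjusted p under 0.05, where 90.1% to 94.6% of all loci tested did against the same genes, and diamonds mark the 8 pairs whose first gene was below 1 FPKM.

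The H3K9 methyltransferases lay the mark that CMT3 and CMT2 read. SUVH4 (also called KRYPTONITE) had 5.50, 5.67 and 5.29 FPKM and SUVH6 had 5.46, 4.92 and 5.08, so that their values overlapped. SUVH6 differed from SUVH4 by -0.08 (95% interval -0.24 to 0.09, limma adjusted p = 0.347). With leading transcripts only, the difference was -0.18 (limma adjusted p = 0.0526). SUVH5 had 1.29, 1.07 and 1.31 FPKM, and differed from SUVH4 by -1.55 (SE 0.103, limma adjusted p = 1.81e-08), where 91.4% of loci tested differed from SUVH4. SUVH4 in turn was below CMT3, with which it acts in a loop, by -0.36 (SE 0.073, limma adjusted p = 0.000296). An annotated noncoding gene on the opposite strand, AT2G07845, covers 94.1% of the exon bases of SUVH6, and no value for it was used here.

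The MORC ATPases condense chromatin downstream of DNA methylation. MORC1 (AT4G36290, CRT1 in the gene table) had 6.01, 6.33 and 6.37 FPKM and MORC6 (AT1G19100, DMS11 in the gene table) had 3.52, 3.47 and 3.00. MORC1 was above MORC6 by 0.74 (SE 0.084, limma adjusted p = 1.31e-06) in 3 of 3 libraries, where 90.3% of loci tested differed from MORC6. Of the 31-base words of MORC1, 5.48% occurred elsewhere, mainly in its close copies AT4G36270 and MORC2 (AT4G36280), which had 0.380 and 0.603 FPKM.

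Histone demethylases of the list were all above 5 FPKM. JMJ14, which demethylates H3K4, had 14.2, 14.8 and 14.4 FPKM and LDL1, which also acts on H3K4, had 6.33, 5.68 and 6.18. IBM1 removes H3K9 methylation from gene bodies and so keeps CHG methylation out of genes. It had 7.69, 6.76 and 6.47 FPKM over its transcripts, above SUVH4 in each library by 0.29 on average (SE 0.079, limma adjusted p = 0.00284). When only the leading transcript of each locus was used, the direction turned, with a difference of -0.20 (limma adjusted p = 0.0373), since the FPKM of IBM1 is divided between transcript forms.

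IBM1 (chromosome 3, 2425884 to 2433113, plus strand) is known to have a long transcript, which encodes the catalytic JmjC domain, and a short transcript that ends within a long intron and does not. In plants this intron is known to carry DNA methylation and to need it for the long form. In TAIR10.1 both forms share the 7 exons before the fork. The long form, AT3G07610.1, has 16 exons and splices exon 7 at base 2429124 to exon 8 at base 2431099, across 1974 bases. The short form, AT3G07610.2, has 7 exons and reads on through that splice site to base 2430203. Sequences around this fork are shown because the forms differ there. Lower case marks the last 60 bases of exon 7 that both forms share (chr3:2429065-2429124, plus strand). Capitals mark what follows, which is the start of exon 8 in the long form (chr3:2431099-2431158) and, in the short form, the 234 coding bases of the intron up to its stop codon, so that the short stretch as a whole is chr3:2429065-2429358.
IBM1 long form: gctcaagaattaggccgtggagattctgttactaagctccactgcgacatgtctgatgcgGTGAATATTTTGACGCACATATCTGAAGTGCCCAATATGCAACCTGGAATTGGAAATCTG
IBM1 short form: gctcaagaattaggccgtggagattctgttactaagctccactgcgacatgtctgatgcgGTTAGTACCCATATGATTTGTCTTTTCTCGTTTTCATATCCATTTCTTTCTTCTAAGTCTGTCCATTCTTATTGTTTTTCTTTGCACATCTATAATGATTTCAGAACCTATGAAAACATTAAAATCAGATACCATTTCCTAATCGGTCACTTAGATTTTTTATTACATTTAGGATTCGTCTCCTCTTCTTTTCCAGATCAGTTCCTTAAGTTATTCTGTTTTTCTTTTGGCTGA
The short form had 4.90, 4.76 and 4.27 FPKM in libraries 1, 2 and 3, and the long form had 2.26, 2.00 and 2.19 FPKM. These values did not overlap, and the ratio of the short to the long form was 2.17 ± 0.214 (SD, n = 3). The short form made up 66.7% ± 3.40 of the FPKM of the locus and the long form 30.9% ± 2.55. Another form, AT3G07610.3, which has an additional exon inside the intron, was listed at 0.535 FPKM in library 1 and at 0 in libraries 2 and 3. The forms share most of their sequence, so these values rest on how the authors' software divided shared reads. Beyond exon 7 the short form lies within the intron of the long form, and total RNA was sequenced. Reads of unspliced RNA there cannot be told apart from the short form, and their share was not tested.

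**Figure D3:**
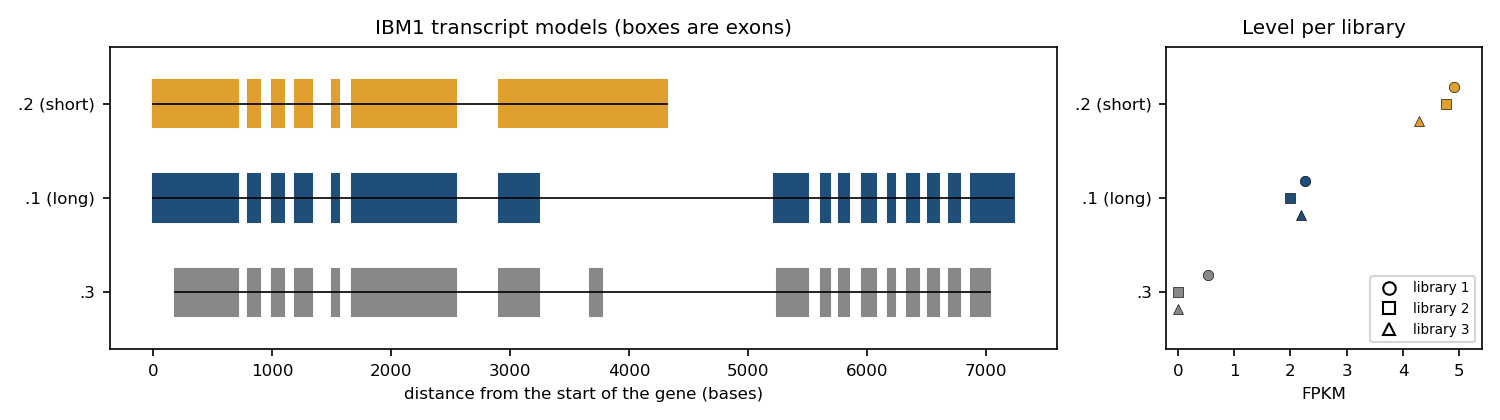
Transcript models of IBM1 in TAIR10.1, in bases from the start of the gene, and the FPKM of each form in the 3 libraries. The short form lies between 4.27 and 4.90 FPKM, and the long form, which continues beyond the intron, between 2.00 and 2.26 FPKM.

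Of the 42 genes, 14 had 2 or more listed transcripts. In 13 of these 14 the same transcript led in every library, and over all such loci this held in 89% of 5507. The exception was DML3, whose FPKM was assigned to AT4G34060.2 in libraries 1 and 2 (0.629 and 0.688 FPKM) and to AT4G34060.1 in library 3 (0.648 FPKM), while its sum was stable. In 7 of the 14 genes every listed transcript with a value had the coding parts of the leading one. NRPD2 was of this kind, with 60.9% ± 5.37 in AT3G23780.1 and 39.1% ± 5.37 in AT3G23780.2, and so was SUVH9, with 84.2%, 75.8% and 82.9% in AT4G13460.1. In DME, transcript AT5G04560.2, which has the longer coding part (5964 bases, against 5190 in AT5G04560.1), held 93.9%, 83.5% and 82.6% of the FPKM of the locus.

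**Figure D4:**
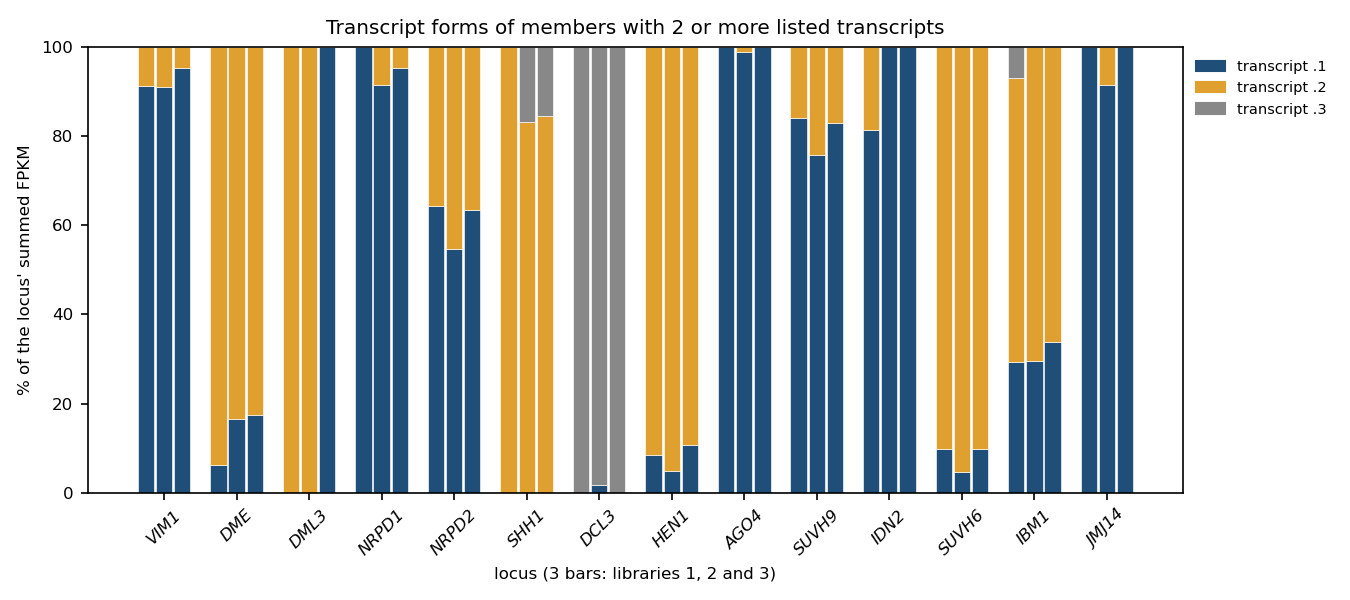
Share of each transcript in the summed FPKM of its locus, for the 14 genes with 2 or more listed transcripts. The 3 bars of a gene are libraries 1, 2 and 3, and colours give the number of the transcript; DML3 changes colour in library 3, and IBM1 and NRPD2 are the most evenly divided.

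None of the 42 genes (0 of 42) differed by more than 1 in log2(FPKM + 1) between its highest and lowest library, where 0.588% of all listed loci did. The number was also 0 of 42 at a range of more than 0.5, where 4.57% of all loci were found, and with a pseudocount of 0.1 at a range of more than 1, where 6.66% were. The first share would leave fewer than 1 gene in 42, so that count says nothing about these genes. The larger shares would also leave few, and they cover all listed loci whatever their level, so those counts say little. A pseudocount of 1 compresses low genes such as CLSY4 (0.231, 0.273 and 0.465 FPKM). The median log2 SD was 0.064 for the 34 of the 42 genes averaging 1 FPKM or more, against 0.086 for 17615 nuclear protein-coding loci at that level. Of those 34, 13 were highest in library 1, 10 in library 2 and 11 in library 3.

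Another 37 genes of the same processes, listed from background knowledge, had a median of 2.84 FPKM. Of these, 23 of 37 were at 1 FPKM or more in every library, where 63.5% of all listed loci were. Among further methyltransferase genes, DRM3, a partner of DRM2, had 10.6 ± 0.291 FPKM, above both DRM2 and DRM1, and CMT1 had 0.00688 ± 0.0119. VIM6 (AT4G08590, ORTHL in the gene table) led the other VIM genes at 1.98 ± 0.257 FPKM, and VIM5 was lowest at 0.0263 ± 0.0270. Of 7 genes that regulate demethylases or complete base excision, the DNA ligase gene LIG1 was highest at 7.95 ± 0.955 FPKM and IDM2 lowest at 1.14 ± 0.163. The polymerase V subunit NRPE5 had 14.9 ± 0.504 FPKM, near its shared partner NRPD2, while NRPE7 had 3.99 ± 0.600. FDM1, a relative of IDN2, had 9.91 ± 0.741 FPKM, above IDN2 itself, and the Argonaute-like locus AT5G21030 was listed at 0 in all libraries. Among other MORC-type ATPase genes, AT5G50780 was highest at 4.41 ± 0.452 FPKM and AT5G13130 lowest at 0.0559 ± 0.0221. HDA6, a histone deacetylase that acts with MET1, had 10.04 ± 1.15 FPKM. IBM2 and EDM2, which are known to promote the long form of IBM1, had 0.701 ± 0.0475 and 9.75 ± 0.427 FPKM. Of 3 genes known to be silenced by DNA methylation, FWA was listed at 0 in all libraries, SDC had 0.904, 0.384 and 0.239 FPKM, and QQS had 0.258, 1.33 and 0.746 FPKM.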

How the data were processed

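RNA-seq values of 3 wild-type seedling libraries were used. The deposited files hold 1 FPKM value per transcript, made by the authors. The unit is not in the file headers and was taken from the submitters' processing notes, which name Cufflinks 2.1.1, TopHat2 2.0.9 and the build TAIR10 with no role or order, and from the values. The sources used here give neither the annotation nor any scaling, and FPKM carries no read depth, so counting intervals were not possible.

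Transcripts were summed per TAIR locus (35337 of 36172 transcripts). Pairs of genes were compared with limma 3.58.1 (R 4.3.3; intercept, empirical Bayes with trend) on log2(FPKM + 1) of loci averaging 1 FPKM or more. The SE used the moderated variances of both genes, and p-values were Benjamini-Hochberg adjusted over all loci tested against the same gene, with a threshold of 0.05. Such differences understate those of low genes. The test was checked on simulated data with independent noise for each gene, which leaves out shifts that genes of a library share. All 42 genes, and from the list of 37 the highest and lowest of each role and those at 0, could be named; EDM2, SDC, VIM4, MORC2, IDM1 and MBD7 were named beyond that rule after their values were seen, as were genes that share sequence or position with the 42. Genes, pairs and lists were chosen with earlier results of these data known. Gene names, models and sequences are from RefSeq's annotation of TAIR10.1, whose transcript models may differ from those of the authors. Words of 31 bases from exons were looked up on both strands of that genome, and coding sequences were aligned with Biopython 1.88. Alternatives changed the pseudocount, filter, variance, feature, scaling and threshold, and left out each library.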

Additional observations from a re-analysis of the deposited data

How the results depend on the processing

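Of 18 pairs tested, 16 were called, where 90.1% to 94.6% of all loci were called against the same genes. With a filter of 5 FPKM the count was 4 of 5, because most pairs could no longer be tested. It was 15 of 18 without replicate 1 or replicate 2. Without replicate 3 it was 16 of 19, where CLSY2 against CLSY1 entered the test and was called. The count was 16 of 18 with a pseudocount of 0.1 or with leading transcripts, and 15 of 18 with the moderated ratio. After rescaling over nuclear loci it was 18 of 21, and without a filter 24 of 26. Without a filter all 8 pairs that had not been tested passed, with limma adjusted p-values from 1.03e-07 to 0.000104. The first genes of these pairs averaged under 1 FPKM, and the genes they were set against were above it in every library. The share of all loci called without a filter was not determined, so these 8 calls say little about the pairs. The call on DME against ROS1 was lost under the moderated ratio (0.0758), after rescaling (0.0528) and without each replicate. IBM1 against SUVH4 reversed with leading transcripts (-0.20), because IBM1 is divided between forms. Genes at 1 FPKM or more in every library numbered 34, and 32 to 37 under the alternatives. Counting only transcripts with a mean of at least 0.5 FPKM, 5 of 5 genes kept their leading transcript in place of 13 of 14, and 14 of 14 without replicate 3. The number of genes more than 1 apart between libraries was 0 under each alternative run. The moderated ratio compares both genes of a pair within each library, whereas the main test does not use this pairing. The 3 libraries form 1 group, so there was no pairing of samples between groups. Values below 1 FPKM, transcript shares and near-identical copies are the least certain.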

Other observations

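All 4 DNA demethylase genes, ROS1, DME, DML2 and DML3, had their highest FPKM in library 2, and no other role among the 42 genes had all its members highest in the same library. The differences were small: ROS1 had 12.4 FPKM in library 2 against 11.4 and 10.9 in libraries 1 and 3. Of the 7 genes listed for base excision and regulation of demethylases, 3 were highest in library 2, 2 in library 1 and 2 in library 3. Over all nuclear loci with a value, 27.4% were highest in library 2. IDM1 (6.11 FPKM, against 5.66 and 4.90) and MBD7 (4.22 FPKM, against 3.75 and 3.24) were among those highest there. LIG1 (6.88 FPKM, against 8.27 and 8.71) and IDM2 (0.967 FPKM, against 1.15 and 1.29) were among those lowest there. The pattern of the 4 demethylases was picked out after the values were seen and was not tested.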
